A study of Homo sapiens with 13 samples.

Results

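The human DEAD box helicases belong to the same protein family as eIF4A, the helicase that Silvestrol inhibits, and the DEAH box helicases to a related family. Both were taken here as every gene whose symbol is DDX or DHX followed by digits and at most 1 letter. The genes of eIF4A itself, antisense genes and pseudogenes were left out. This rule found 56 genes (40 DDX and 16 DHX), 54 among the 24847 gene symbols of the Silvestrol table and 50 among the 13101 of the INK128 table, with 48 in both. One of them, DDX26B, is now called INTS6L and only its older symbol places it here, not membership in either family. It is kept in the counts of helicase genes below. The antiviral sensor DDX58 is now called RIGI.

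Ribosome footprints (RFs) and mRNA were sequenced in MDA-MB-231, a triple-negative breast cancer cell line. Cells were treated with Silvestrol at 25 nM or with its vehicle DMSO for 1 h or 2 h, and 1 further RF library came from untreated cells. RFs at 2 h were measured in passages 3 and 4 of the cells (n = 2 per treatment), whereas RFs at 1 h and mRNA at 2 h have 1 library per treatment, all from passage 3. In a separate experiment RFs and total RNA were measured after 2 h with DMSO or with INK128, an mTOR kinase inhibitor, at 200 nM, again with 1 library each. A characteristics field gives 1 h for the 2 h Silvestrol RF library of passage 3, and the title was followed. The column used for the DMSO mRNA library names no treatment and was assigned because the only other mRNA column names Silvestrol. The passages are cultures of 1 cell line, so p-values can reflect no more than the spread between cultures. The 2 h RF libraries of passage 3 had 26176257 (DMSO) and 12010405 (Silvestrol) counted reads, those of passage 4 had 6446356 and 2652423. Markers that this line is known for (VIM, CD44, AXL and CAV1) lay between 109 and 6454 RF RPKM (reads scaled to counted length and library size) with DMSO in passage 3. Hormone receptor, ERBB2 and epithelial genes lay between 0 and 3.27 RPKM in the same library, and markers of other cell types between 0 and 4.22. EPCAM had 9.69 RF RPKM with DMSO in passage 4, and ERBB2 had 25.8 RPKM in the DMSO mRNA library, so these are not absent.

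DEAD and DEAH box proteins use ATP to bind and remodel RNA. eIF4A unwinds the 5′ untranslated region (5′ UTR) of mRNA so that the small ribosomal subunit can load, while its relatives act in splicing, mRNA export, ribosome assembly, mRNA decay, mitochondrial RNA handling and antiviral sensing. Silvestrol is a rocaglate, a class known to clamp eIF4A onto purine-rich RNA. The 5′ UTRs of 7 helicase mRNAs are given here around their longest uninterrupted run of purines, printed in capitals within at most 5 flanking bases on each side. They are the 4 genes whose RFs changed at 2 h (DHX32 and DDX6 lower, DDX5 and DDX52 higher), with DHX34, DHX38 and DDX3X, which had the next lowest RF changes and did not pass the test. All are on the sense strand, from GENCODE version 44 transcripts on GRCh37.
DHX32: ttaacAGAAAAAAAAAAAAtaatg
DDX6: gcagcGGAGGAGAttgac
DHX34: tgaccAGGAGGAAAAAttagc
DHX38: cggatAGAGGGGGcgcgc
DDX3X: cccgtGAGAGGGccttc
DDX5: cccgcAAGGcttcg
DDX52: AGAActgtg

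The DHX32 window is at chr10:127569727-127569750 on the minus strand and its run of 14 purines ends 338 nt before the start codon. The DDX6 window crosses an exon junction between its ends at chr11:118657222-118661818 on the minus strand, and its longest run has 8 purines. The DHX34 window (chr19:47856144-47856164, plus strand) holds a run of 11, the DHX38 window (chr16:72127800-72127817, plus strand) a run of 8 and the DDX3X window (chrX:41193429-41193445, plus strand) a run of 7. In DDX5 (chr17:62502319-62502332, minus strand) and DDX52 (chr17:36003467-36003475, minus strand) no run is longer than 4. Among the highest RF changes not shown, the longest run is 8 in DDX28, 3 in DDX51 and 4 in DDX10 and DDX20. The 5′ UTRs shown differ in length, from 26 nt in DDX52 to 468 nt in DHX32, and run lengths were not adjusted for this. All 7 windows lie in annotated 5′ UTR exons. A run of at least 11 purines was present in the 5′ UTR of 8 of 47 helicase genes with enough reads to test (17.0%) and of 1699 of 9087 tested genes with a matched transcript (18.7%). Of those 8 helicase genes, 7 had a log2 RF change below 0 (87.5%), against 81.8% of the 1699 genes and 50.9% of all genes tested. For DDX42, DDX59 and DDX26B among the 7 the change was smaller than its standard error, and DDX26B is in neither helicase family.

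Of the 56 genes, 47 passed the filter on the Silvestrol data (RPKM above 0 in the passage 3 libraries at 2 h, mean RF RPKM of at least 1 and mean mRNA RPKM of at least 0.3), among 10509 genes in all. RF reads at 2 h were compared between Silvestrol and DMSO with edgeR's quasi-likelihood test over the 4 RF libraries, with Benjamini-Hochberg adjustment over all 10509 genes. A gene was called changed at an adjusted p-value under 0.05. RF values are scaled within each library, so higher or lower is relative to other genes and gives no absolute number of ribosomes. Of the 47 helicase genes, 2 were called lower, against 7.56% of all genes tested, and 2 were called higher, against 2.17%. The 4 calls are DHX32 and DDX6 (lower) and DDX5 and DDX52 (higher). With the passage as a block, 8 of 47 were called lower, against 28.1% of all genes, and 20 were called higher, against 25.0%. The blocked fit leaves little spread to measure within a gene. Its small p-values therefore lean on the spread estimated over all genes. The 8 lower genes were DHX32, DDX6, DHX34, DHX38, DDX3X, DDX17, DDX1 and DHX33. The median log2 RF change of the 47 genes was 0.14, against −0.01 over all genes tested. At an unadjusted p-value under 0.05 there were 19 of the 47 and 31.2% of all genes. DESeq2 on all 4 libraries called 2 of the 47 lower, against 9.57% of all genes, and 7 higher, against 5.38%. With only 1 Silvestrol library edgeR called none of all 10509 genes, so leaving one of these out says nothing about the stability of the 4 calls. At an unadjusted p-value under 0.05 there were 9 of the 47 genes and 15.1% of all without the Silvestrol library of passage 3, and 12 and 17.9% without that of passage 4. Without the DMSO library of passage 3 or of passage 4, DHX32, DDX6 and DDX5 were still called, whereas DDX52 was not (adjusted p = 0.0560 and 0.0756). The log2 changes of DHX32 without the Silvestrol library of passage 3 or of passage 4 were −1.56 and −1.43, those of DDX6 −1.19 and −1.72, those of DDX5 0.65 and 0.81, and those of DDX52 0.64 and 0.66.

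**Figure D1:**
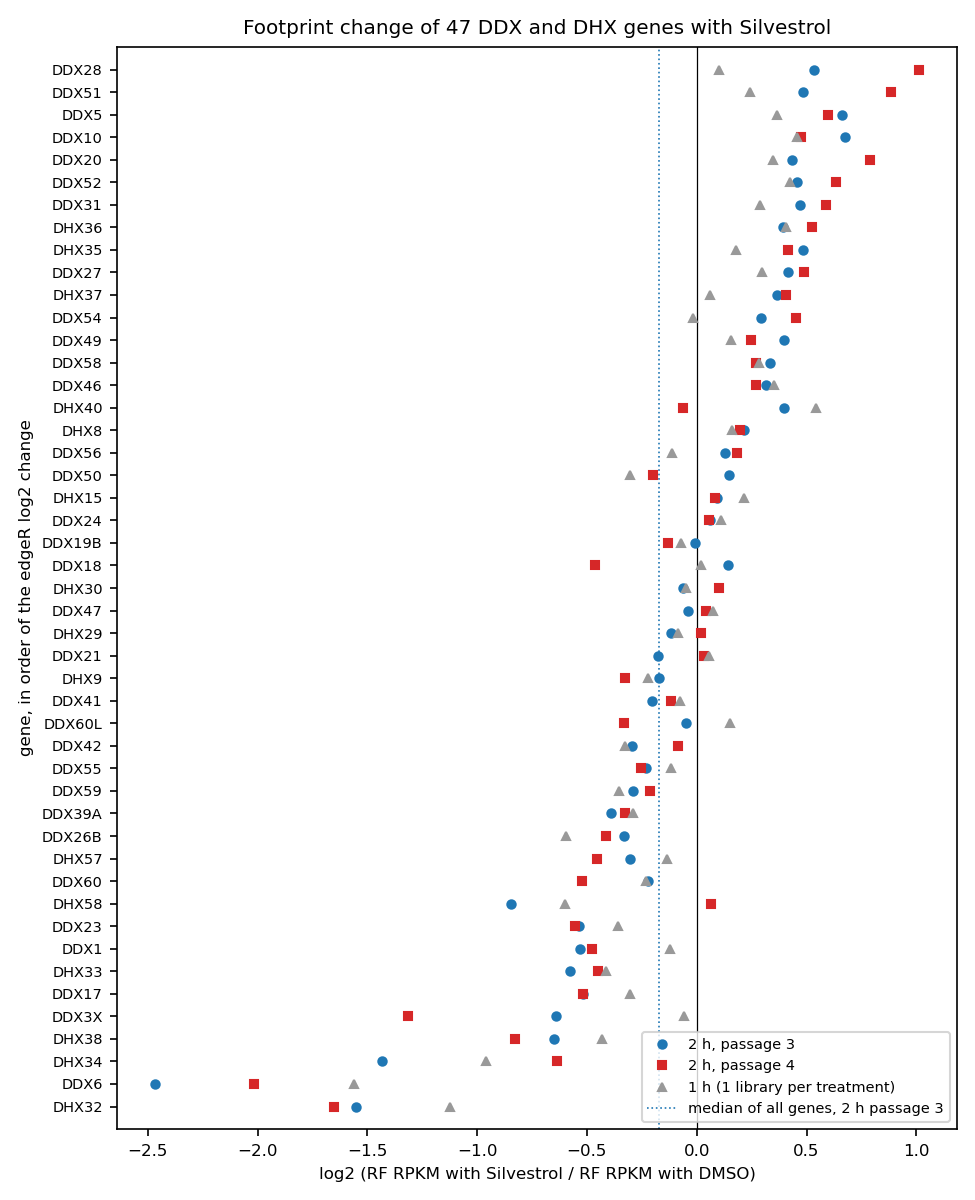
Log2 ratio of RF RPKM with Silvestrol to RF RPKM with DMSO (horizontal axis) for the 47 tested DDX and DHX genes, in order of the edgeR change. Circles are passage 3 and squares passage 4 at 2 h, and triangles the single pair of libraries at 1 h. DDX6 and DHX32 lie farthest to the left in all 3 comparisons, and 39 of the 47 genes have the same sign in both passages.

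DHX32, a DEAH box protein whose function is less well known, had the lowest edgeR estimate from read counts, which differed from that of DDX6 by less than their errors. In passage 3 its RFs stood at 33.6 RPKM (2606 reads) under DMSO and 11.5 (435 reads) under Silvestrol, and in passage 4 at 35.4 (653 reads) and 11.3 (88 reads). Both Silvestrol values were far below both DMSO values, and the untreated and 1 h DMSO libraries, at 34.1 and 33.1 RPKM, lay with the other controls. The log2 RF change was −1.47 ± 0.16 (SE, n = 2 per treatment, adjusted p = 0.0191). Its mRNA moved the other way, from 15.99 to 19.5 RPKM in 1 library each.

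DDX6 activates the decapping of mRNA and takes part in translational repression in P-bodies. In passage 3 it had 128 RF RPKM (2536 reads) under DMSO and 23.2 (375 reads) under Silvestrol, and in passage 4 it had 109 (748 reads) and 27.0 (120 reads). The groups did not overlap. The edgeR log2 change from read counts was −1.44 ± 0.23 (adjusted p = 0.0327), while the RPKM values gave −2.47 and −2.02 in the passages. The gap goes with the ratio of reads to RPKM and library size, taken here as a counted length that was not itself observed. For DDX6 this length was 1.78 times as long in the Silvestrol as in the DMSO library of passage 3. The median over all genes was 1.07. Only 0.162% of the tested genes had a larger ratio. With an offset for counted length in the edgeR test, the change of DDX6 was −2.19 (adjusted p = 0.0119) and that of DHX32 −1.54 (adjusted p = 0.0135). DDX6 mRNA stood at 18.4 RPKM with DMSO and 26.6 with Silvestrol.

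The other lowest changes did not pass the test. DHX34, a factor of nonsense-mediated decay, had 12.7 and 4.69 RF RPKM with DMSO and Silvestrol in passage 3 and 7.87 and 5.07 in passage 4, so the fall was larger in passage 3. Its log2 RF change was −0.97 ± 0.29 (adjusted p = 0.0963, and 1.77e-09 with the passage block). It was −0.53 (adjusted p = 0.199) without the DMSO library of passage 3 and −1.28 (adjusted p = 0.0197) without that of passage 4. DHX38, the splicing helicase also called PRP16, had a change of −0.60 ± 0.16 (adjusted p = 0.0790). For DDX17, a coregulator of transcription, it was −0.39 ± 0.12 (adjusted p = 0.102). Both were called lower with the passage block.

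DDX5, the paralog of DDX17 and also a coregulator of transcription and microRNA processing, was the most abundant helicase among the RFs. Its RFs were higher with Silvestrol relative to other genes. It had 799 and 1263 RF RPKM with DMSO and Silvestrol in passage 3 and 781 and 1183 in passage 4. Each Silvestrol value was above each DMSO value, the untreated value of 856 and the 1 h DMSO value of 775. The log2 RF change was 0.75 ± 0.11 (adjusted p = 0.0270). DDX52, needed for assembly of the small ribosomal subunit, had 64.3 and 88.2 RF RPKM in passage 3 and 60.4 and 93.7 in passage 4, a log2 change of 0.66 ± 0.13 (adjusted p = 0.0438) whose call was lost without either DMSO library. The mRNA of both was also higher with Silvestrol, 178 against 123 RPKM for DDX5 and 14.7 against 8.69 for DDX52, each from 1 library. DDX5 and DDX17 therefore stood on opposite sides of 0, although their difference was not tested.

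**Figure D2:**
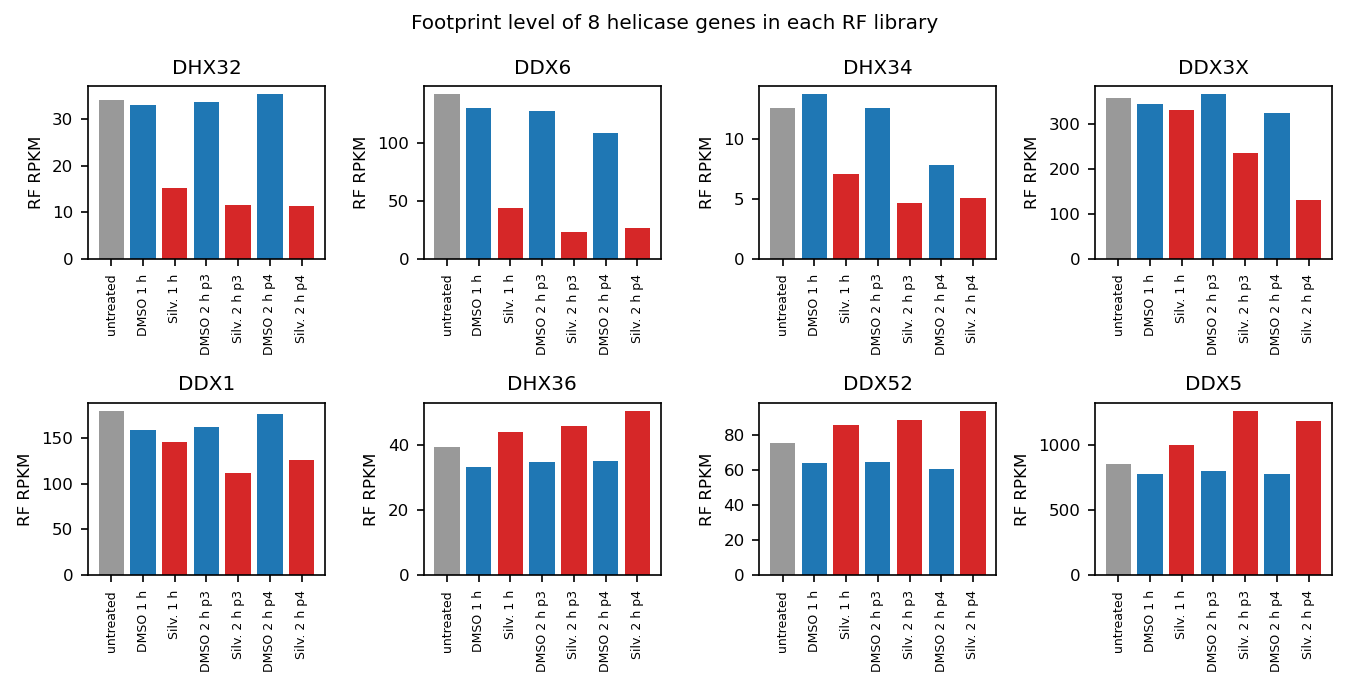
RF RPKM (vertical axis, from 0) of 8 helicase genes in each of the 7 RF libraries, 1 bar per library, with DMSO in blue, Silvestrol in red and untreated cells in grey. DHX32 and DDX6 are lower with Silvestrol in each pair of libraries, and DDX5 and DDX52 are higher in each pair.

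Among the helicases of cytoplasmic translation and mRNA decay, 5 of 6 genes could be tested, and 1 (DDX6) was called lower and none higher by edgeR without the block, against 7.56% and 2.17% of all genes. With the block 3 were called lower and 1 higher, against 28.1% and 25.0%. DDX3X promotes translation of mRNAs with structured leaders and was among the 5 helicases with the most RFs. Silvestrol values were below DMSO values in both passages, at 234 against 365 RF RPKM in passage 3 and at 130 against 323 in passage 4. The log2 RF change from reads was −0.53 ± 0.17 (adjusted p = 0.110, and 6.42e-08 with the passage block), and with the offset for counted length it was −0.86 (adjusted p = 0.112). DDX3X was also the helicase whose mRNA was lowest with Silvestrol relative to DMSO, 26.9 against 54.2 RPKM (2818 and 9617 reads). Its counted length differed between libraries too, and reads shared with its near-identical copy DDX3Y can be split or lost, so its values are less certain. DHX36 unwinds G-quadruplexes in RNA. It had 34.8 and 45.7 RF RPKM in passage 3 and 35.02 and 50.4 in passage 4, a log2 change of 0.58 ± 0.12 that just missed the threshold (adjusted p = 0.0504) and passed it with DESeq2 (0.0199), with the passage block (1.95e-07) and with a minimum RPKM of 5 (0.0443). DHX29 helps the small subunit scan structured 5′ UTRs, and its log2 RF change was 0.12 ± 0.16 (adjusted p = 0.652).

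The 16 helicases of ribosome assembly were all tested. RFs of 1 of them (DDX52) were called higher and of none lower, against 2.17% and 7.56% of all genes. With the passage block 10 were called higher and 1 (DHX33) lower, against 25.0% and 28.1%. The median log2 RF change was 0.39. A change above 0 was found for 14 of the 16, against 49.1% of all genes tested, for 13 without TMM scaling and for 12 by the RPKM ratios of either passage. The median 5′ UTR of the 16 is 49.5 nt. Of all genes with a 5′ UTR of at most 50 nt, 14.0% had a change below 0. Log2 RPKM ratios run lower than the edgeR values, with a median over all genes of −0.17 in passage 3 against −0.01. DDX10 and DDX51 had the highest changes of this group, 0.74 ± 0.26 (adjusted p = 0.128, and 5.08e-07 with the block) and 0.77 ± 0.27 (adjusted p = 0.130, and 9.16e-07 with the block). DDX51 had 15.96 and 22.3 RF RPKM in passage 3 and 10.6 and 19.5 in passage 4, from 136 to 1100 reads. DDX21, an abundant nucleolar helicase of rRNA synthesis and processing, showed little difference, with 275 and 244 RF RPKM in passage 3 and 232 and 238 in passage 4. DDX55 and DHX33 were the 2 with a value below 0 by edgeR, −0.07 and −0.39.

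Mitochondrial helicases were represented by DDX28, which acts in assembly of the large mitochondrial ribosomal subunit, and DHX30. DDX28 had the highest log2 RF change of all 47 genes, 0.86 ± 0.26 (adjusted p = 0.0966, and 1.82e-08 with the block), with 20.5 and 29.7 RF RPKM in passage 3 and 13.8 and 27.8 in passage 4. Its passage 4 values rest on 184 and 157 reads. The change of DHX30 was 0.14 ± 0.19 (adjusted p = 0.651).

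None of the 8 tested splicing helicases was called in either direction without the block, and with it 1 (DHX38) was called lower and 4 higher, against 28.1% and 25.0% of all genes. DHX15, which takes spliceosomes apart, had 234 and 249 RF RPKM in passage 3 and 239 and 253 in passage 4, a log2 change of 0.21 ± 0.11 (adjusted p = 0.254, and 0.0274 with the block). Of the 4 mRNA export helicases, DDX39A and DDX19B could be tested and neither was called with or without the block. DDX39A had 250 and 191 RF RPKM in passage 3 and 186 and 148 in passage 4, lower with Silvestrol in both passages but with a log2 change of only −0.20 ± 0.20 (adjusted p = 0.553).

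Of the nuclear helicases that act in several pathways, DHX9 (RNA helicase A) differed by less than its error, 0.04 ± 0.18 (adjusted p = 0.901). DDX20, the gemin3 subunit of the SMN complex, had 49.1 and 66.5 RF RPKM in passage 3 and 41.1 and 71.0 in passage 4, a change of 0.73 ± 0.16 with an adjusted p-value just over the threshold (0.0517, and 2.15e-11 with the block). DDX1, a subunit of the tRNA ligase complex, had 162 and 112 in passage 3 and 176 and 126 in passage 4. Its change was −0.38 ± 0.11 (adjusted p = 0.0970, and 0.000106 with the block). All 4 antiviral sensing helicases could be tested and none was called without the block. With it 1 (DDX58) was called higher (adjusted p = 0.000123), against 25.0% of all genes, and none lower, against 28.1%. The median log2 change of these was −0.16.

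The 9 genes that were not tested were accounted for. DDX4 and DDX43, germ cell helicases, had 0 reads in all 9 libraries, where a count of 0 in the 26176257 reads of the passage 3 DMSO library allows up to 0.115 RPM, for counting error only. DDX25 had at most 8 reads in a library, DDX53 at most 16 and DDX3Y at most 2. DDX11 was covered by 10 to 39 RF reads per library and lay under the minimum level. DDX19A and DDX39B stood only in the INK128 table under these symbols. BAT1, an older symbol of DDX39B, was on 64 lines of the Silvestrol table with 0 reads in all 9 libraries, which is not read as absence of DDX39B. DHX16, a splicing helicase, appeared on 64 lines of the Silvestrol table, of which the entry kept had 1 read over the 9 libraries, yet had 25.9 RF FPKM (fragments scaled to length and library size) with DMSO in the INK128 table, so its 0 values are not read as absence.

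How far the RF changes followed mRNA was asked through the translation efficiency (TE), the ratio of RFs to mRNA. The log2 change in TE was computed from RPKM of passage 3 and standardized over the 10509 genes to a z-score, read against thresholds of −1.5 and 1.5. It has no replicate check, since mRNA has 1 library per treatment. DDX6 (−2.68) and DHX32 (−1.52) were the 2 helicase genes below −1.5, against 6.29% of all genes. None of the 47 lay above 1.5, against 4.37% of all genes. The next lowest z-score was that of DDX1 (−1.05), whose RFs were lower while its mRNA was higher (53.9 against 30.2 RPKM). From reads per library total in place of RPKM, the z-score of DDX6 was −1.98 and that of DHX32 −1.54. With the RFs of passage 4 they were −2.35 and −1.71. Without the filter on low values they were −2.46 and −1.41, so that DHX32, close to the threshold, was no longer below it. DDX3X stood apart from its footprint change with a z-score of 0.67, its mRNA having been lower by 1.01 on the log2 scale while its RF RPKM in passage 3 was lower by 0.64. With the RFs of passage 4 its z-score was −0.01, and the log2 TE change was −0.31 in place of 0.37. The highest z-score was that of DDX49 (1.32), a ribosome assembly helicase named after its values were seen, with 53.1 and 70.0 RF RPKM and 53.8 and 34.98 mRNA RPKM. The z-scores of DDX5 and DDX52, whose RFs were called higher, were 0.43 and 0.01.

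As an interaction of assay and treatment in edgeR (6 libraries at 2 h, with a spread from RFs alone), the change in TE was called for none of the 47 genes and for 0 of 10509 genes. At an unadjusted p-value under 0.05 there were 8 of the 47 and 2573 of all. DESeq2 called 3 of the 47 lower, against 5.10% of all genes, and 0 higher, against 3.57%. The 3 were DDX6 (adjusted p = 0.00532), DHX32 (0.00534) and DDX1 (0.0294). Blocked by passage, with the same limit as the blocked RF test, edgeR called 7 of the 47 lower, against 23.4% of all genes. It called 13 higher, against 23.8%. Of the 13, 7 belong to ribosome assembly.

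**Figure D3:**
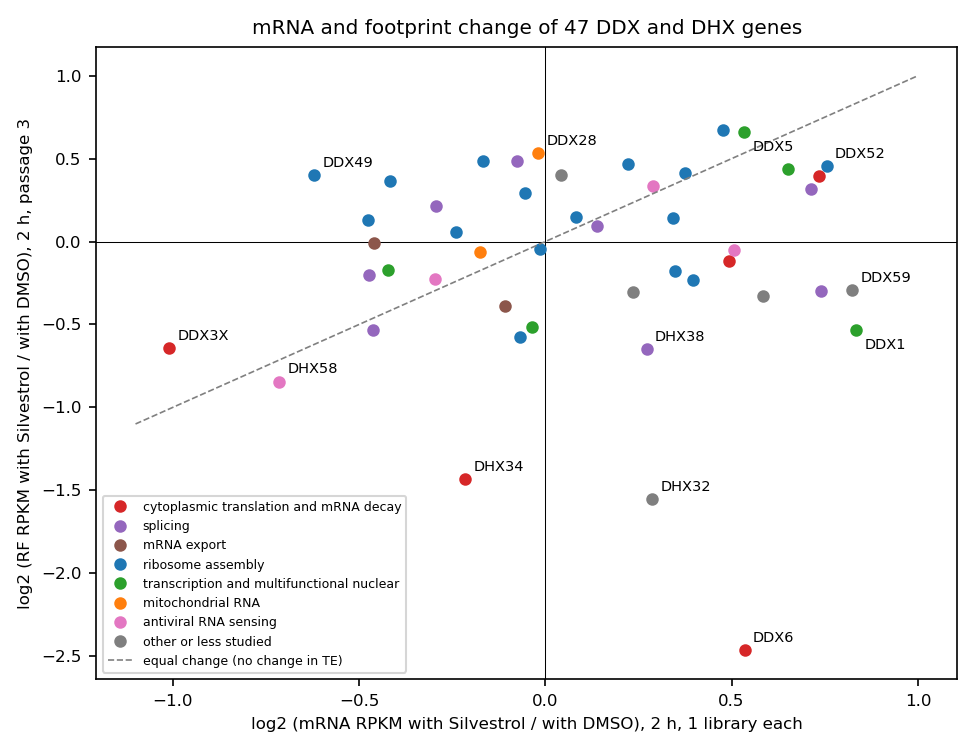
Log2 change in mRNA RPKM (horizontal axis, 1 library per treatment) against log2 change in RF RPKM of passage 3 (vertical axis) with Silvestrol at 2 h for 47 helicase genes, coloured by role. Genes under the dashed line lost RFs relative to mRNA, and DDX6 and DHX32 lie farthest under it.

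At 1 h the 3 helicases with the lowest RF changes were those of 2 h by edgeR and by passage 3, in 1 library per treatment and with no test. DDX6 RFs were at 131 RPKM with DMSO and 44.3 with Silvestrol (log2 change −1.56), DHX32 at 33.1 and 15.2 (−1.12) and DHX34 at 13.8 and 7.09 (−0.96). Each of these 3 values was lower still at 2 h in passage 3. In passage 4 at 2 h DDX3X (−1.32) and DHX38 (−0.83) lay below DHX34 (−0.63), whose change was smaller there than at 1 h. DDX5 had 775 and 999.5 RPKM at 1 h. The highest log2 change at 1 h was that of DHX40 (0.54). DDX28 and DDX51, the highest at 2 h by edgeR over both passages, stood at 0.10 and 0.24. DDX10, the highest at 2 h by RPKM of passage 3 (0.67), stood at 0.45. DDX3X differed little at 1 h, 344 against 330 RPKM. Across the 47 genes, the 1 h and the passage 3 changes at 2 h had the same sign in 41 (Pearson's r = 0.93, Spearman's rho = 0.89), where all libraries come from 1 passage of cells and genes are not independent. Over all 10498 genes with values r was 0.75 and rho 0.77. An edgeR interaction of time and treatment over the 6 RF libraries called no gene and none of the 47, with 111 genes and none of the 47 at an unadjusted p-value under 0.05.

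The helicase 5′ UTRs were compared with their RF changes, since eIF4A acts on this part of the mRNA. All 47 tested genes matched an annotated 5′ UTR, with a median length of 85 nt against 134 nt over 9087 tested genes. The 3 genes with the lowest RF changes have 5′ UTRs of 468 nt (DHX32), 334 nt (DDX6) and 315 nt (DHX34). Among the 47 genes 1 more, DDX26B (333 nt), has a 5′ UTR of at least 300 nt, though it is in neither helicase family. Its log2 RF change was −0.21 ± 0.37 from only 7 to 105 RF reads at 2 h. These 4 are 8.51% of the 47 genes, against 18.5% of all genes. Of all genes with a 5′ UTR this long, 85.1% had an RF change below 0. At the other end, 14 helicase genes have 5′ UTRs of at most 50 nt (29.8%, against 17.8% of all genes), and their median log2 RF change was 0.53. Of these 14, 2 had a change below 0 (14.3%), against 14.0% of all genes with a 5′ UTR this short, so their share is that of the background. All 16 ribosome assembly helicases have 5′ UTRs under the median of all genes, with a median of 49.5 nt.

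Over the 47 genes the RF change was lower where the 5′ UTR was longer on a log2 scale (Pearson's r = −0.63, Spearman's rho = −0.59), and over 9079 genes r was −0.57 and rho −0.59. Genes are not independent, all values come from the same 4 libraries, and no p-value is given. DDX5 departed from this order, with 170 nt and higher RFs. DHX32 and DDX6 also had the lowest GC content of the 47 5′ UTRs, 38.7% and 42.5%, against a median of 62.5% for the 47 genes and 67.7% for all genes. An upstream ATG was found in 13 of the 47 (27.7%, against 38.5% of all genes), with 7 in DHX32 and 5 in DHX34, and the median log2 RF change of these 13 was −0.04. The motif AGAGAG, searched on the sense strand, was in the 5′ UTR of DDX6 and DDX26B (4.26%, against 7.85% of all). CGG repeated 4 times was found in DDX42 alone among the 47, and in 4.70% of all genes. The log2 RF change of DDX42 was −0.07 ± 0.13.

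**Figure D4:**
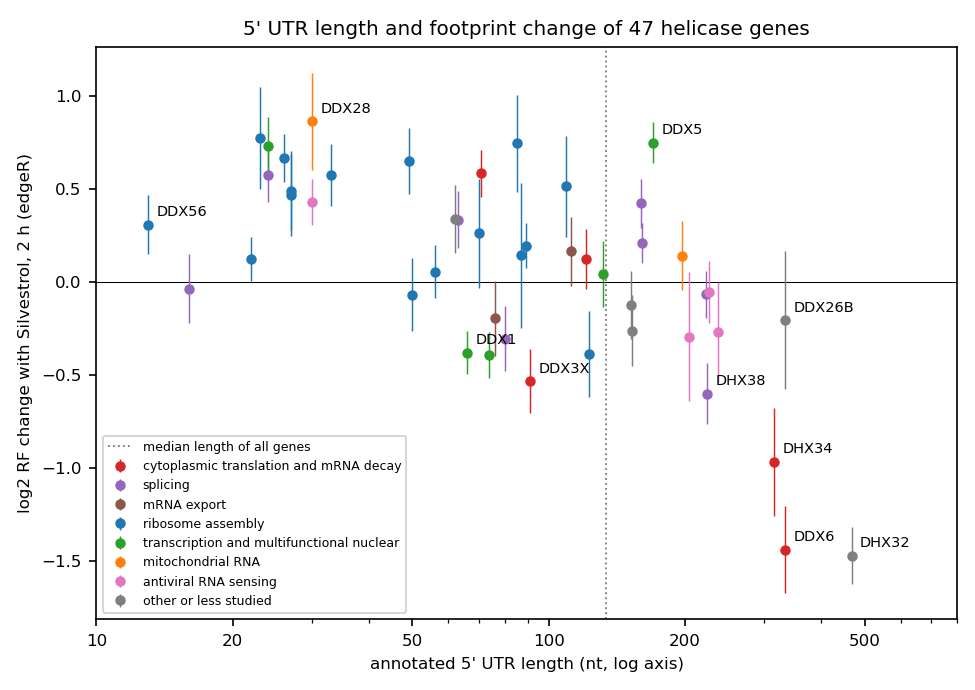
Annotated 5′ UTR length (horizontal log axis, nt) against the edgeR log2 RF change with Silvestrol at 2 h (vertical axis, points with 1 standard error, n = 2 per treatment) for 47 helicase genes, coloured by role. The dotted line is the median length of all genes, 134 nt. DHX34, DDX6 and DHX32 form the lower right corner.

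For comparison, 18 RNA helicases that carry other names were examined, of which 15 were tested. Of these, 2 were called lower and 1 higher, against 7.56% and 2.17% of all genes. With the passage block 4 were lower and 5 higher, against 28.1% and 25.0%. EIF4A3, the eIF4A paralog of the exon junction complex, had 389 and 187 RF RPKM with DMSO and Silvestrol in passage 3 and 343 and 181 in passage 4, a log2 change of −0.84 ± 0.14 (adjusted p = 0.0321). EIF4A1, the main target of Silvestrol, had 133 and 235 in passage 3 and 249 and 243 in passage 4, so the passages differed and its change of 0.49 ± 0.44 was not called (adjusted p = 0.490, and 2.84e-05 with the block). For EIF4A2 the change was 0.92 ± 0.25 (adjusted p = 0.0794, and 3.19e-12 with the block). Reads shared between these paralogs and their processed copies make the values of EIF4A1 and EIF4A2 uncertain.

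With INK128, RF and RNA values are FPKM of 1 library each, with unknown depth and no test. Of the 56 genes, 40 passed the filter (mean RF FPKM of at least 1 and mean total RNA FPKM of at least 0.3) among 7092 genes. Footprints of these 40 differed little: log2 RF changes ran from −0.30 (DDX21) to 0.39 (DHX40), with a median of −0.01, against 0.01 over all genes. Total RNA FPKM was lower for all 40, with a median log2 change of −1.27 against −1.17 over all genes, a shift that the other genes share. The z-score of the log2 TE change removes that shift. DDX19A was the only helicase gene below −1.5, with a z-score of −1.60, against 5.58% of all genes, and none was above 1.5, against 1.72%. DDX19A, which remodels mRNA at the nuclear pore, had 8.41 RF FPKM with DMSO and 8.29 with INK128, and 2.22 and 1.77 FPKM in total RNA. It passed −1.5 only in this setting and not with a pseudocount of 0.1 FPKM or without the filter. Its near-identical neighbour DDX19B, with which reads may be split, had a z-score of 0.68.

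The highest INK128 z-scores were those of DDX55 (1.42) and DDX31 (1.39), both of ribosome assembly. DDX31 had 8.41 and 7.23 RF FPKM and 0.593 and 0.144 FPKM in total RNA, and DDX55 had 6.62 and 6.94 RF FPKM and 0.501 and 0.146 in total RNA. Both rest on total RNA values close to the minimum. Next came the splicing helicases DDX23 (0.89) and DDX42 (0.88) and then DHX32 (0.74). After DDX19A, the lowest were DHX40 (−0.39), DHX30 (−0.32), DDX54 (−0.31) and DHX34 (−0.23).

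DDX6 and DHX32, the lowest with Silvestrol, were not at the low end with INK128. RFs of DDX6 were 30.3 FPKM with DMSO and 29.7 with INK128, with a z-score of 0.10, and RFs of DHX32 were 11.5 and 12.9. DDX39B, with values only in this experiment, had 141 and 146 RF FPKM, and DDX5 had 196 and 183. The 36 helicase genes with z-scores for both drugs showed a correlation near 0 (Pearson's r = −0.03, Spearman's rho = −0.06), as a description over genes. The drugs were tested in separate experiments with separate DMSO libraries and different normalization, and the difference between them was not tested.

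**Figure D5:**
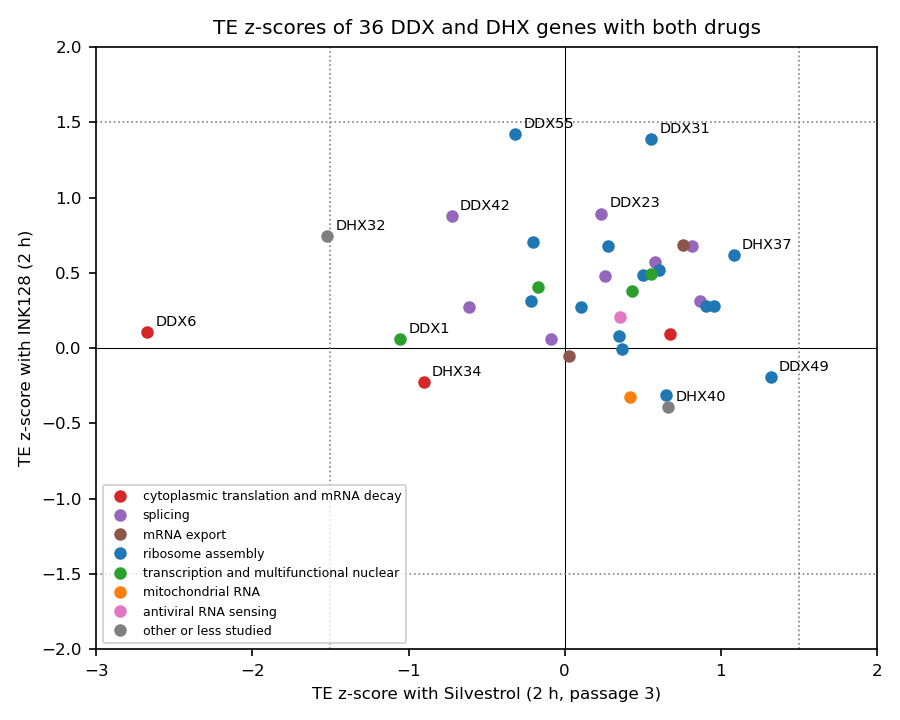
TE z-score with Silvestrol (horizontal axis, 2 h, passage 3) against TE z-score with INK128 (vertical axis, 2 h) for the 36 DDX and DHX genes measured with both, coloured by role. Dotted lines are the thresholds of −1.5 and 1.5. DDX6 and DHX32 are past the left threshold and no gene shown is past a threshold of INK128.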

How the data were processed

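The 2 deposited tables of RFs and RNA in MDA-MB-231 cells were used. For Silvestrol the authors clipped linkers, discarded rRNA, ran Bowtie on hg19 and KnownGene transcripts (2 mismatches and 16 alignments allowed) and deposited, for each transcript, counts of reads that map to 1 place. The labels list CASAVA 1.8.1 and Bowtie2. The authors also deposited RPKM, which leaves out positions with non-unique reads, so the counted length can differ between libraries. For INK128 the authors deposited FPKM, with no counts, and the program is not given in the sources used here. Columns of the authors' TE, its log2 change and a score were not used, and 0 columns of per-sample values were left out.

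Repeated lines were dropped (38897 lines, 25758 distinct), and of symbols with several entries (546) the one with the highest mean RF RPKM was kept. Counts were tested with edgeR 4.0.16 (TMM, quasi-likelihood, in R 4.3.3), with DESeq2 1.42.0 as an alternative, and standard errors are those of the edgeR models. Scripts were tested on simulated data. Log2 ratios of RPKM and FPKM have no pseudocount. Replicates 1 and 2 are passages 3 and 4 by the labels. That DMSO and Silvestrol libraries of a passage shared a culture is inferred from the equal passage number. Their deviations from group means correlated with r = 0.763 over 10509 genes, and the passages therefore pair the samples, so blocked values are given. The 5′ UTRs are from GENCODE version 44 on GRCh37, by MANE Select transcript for 99.4% of the matched genes, and an ATG followed 99.7% of them.

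The helicase genes, the role lists and the comparisons were chosen with earlier results of these data known. Named are the called genes, the 6 lowest and 6 highest RF changes with the same sign in both passages, genes past a z-score threshold, the 5 lowest and 5 highest INK128 z-scores, the 5 with the most RFs, genes that failed the filter and 11 genes chosen by role. Any further gene was named with its values in view. Depth was 2652423 to 50315607 counted reads per Silvestrol library, and is unknown for INK128. Read counts carry counting error only in part, since reads without molecular identifiers are not independent molecules.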

Additional observations from a re-analysis of the deposited data

How the results depend on the processing

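Of the 47 tested helicase genes, edgeR called 2 lower and 2 higher in RFs. These became 8 and 20 with the replicate block (the passage), 2 and 7 with DESeq2, 2 and 4 with a minimum mean RPKM of 5, 2 and 3 without a filter, and 2 and 3 with an offset for counted length, an alternative added after the data were seen. Leaving out 1 library at a time gave 0 to 3 lower and 0 to 4 higher, with 0 in both, as for all genes, when either Silvestrol library was left out. DDX52 also lost its call without either DMSO library (adjusted p = 0.0560 and 0.0756). For TE, edgeR called 0 lower and 0 higher. These became 7 and 13 with the replicate block and 3 and 0 with DESeq2, and 0 to 2 lower and 0 to 0 higher when 1 library was left out. Below −1.5 in Silvestrol z-score were 2 genes, and 1 (DDX6) without a filter. Below −1.5 with INK128 was 1 gene, and 0 with a pseudocount of 0.1 FPKM, without a filter or with a minimum mean FPKM of 5. Above 1.5 with INK128 were 0, and 1 without a filter. The minimum of 5 FPKM left 1 helicase gene, which had a z-score above 0. No log2 RF change of the 8 genes recomputed in each setting (DHX32, DDX6, DDX5, DDX52, DHX34, DDX1, DDX3X and DHX36) reversed its sign. Depth limits the Silvestrol library of passage 4 most, with 88 reads for DHX32 and 120 for DDX6. The causes of these differences were not tested.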
